A study of Mus musculus with 22 samples.

Results

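The 5hmC levels of olfactory bulb and cortex were compared over the autosomal 1 Mb bins of the mouse genome whose level was above 0 in every TAB-seq library. There were 2413 such bins among the 2641 bins of the deposited tables, after 57 autosomal bins listed at 0 in every library and the X chromosome were set aside. TAB-seq reads only 5hmC as cytosine, because 5hmC is shielded by a glucose while 5mC is oxidized by a TET enzyme before bisulfite conversion. The comparison had 3 libraries of cortex and 3 of olfactory bulb from C57BL/6 mice at 8 weeks of age, and neither the labels nor the study's methods give an engineered allele or a treatment. The mice were female, the cortex was taken without the hippocampus, and the olfactory bulb was used as whole tissue. The study's methods call the replicates technical but say that they came from independent mice, and its results call them biological. Both tissues are mixtures of neurons and glia, and in such bulk DNA fewer cells of a type and less 5hmC per cell cannot be told apart. No RNA levels were analysed here, so the tissue labels were not checked against marker expression.

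5hmC is formed from 5mC by the TET enzymes, and it accumulates in neurons to higher levels than in most other cells, mainly in the bodies of genes. The olfactory bulb receives the axons of the olfactory sensory neurons. It passes their signals on through mitral and tufted cells, which release glutamate. Most of its neurons are GABAergic interneurons, the granule and periglomerular cells, many of which are born after birth and reach the bulb by migration. The neurons of the cortex are mostly excitatory and release glutamate.

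Both modifications were read at CpG sites, so the CpG sites ahead of 4 genes that the results turn on are shown. Erbb4 and Meis2 are the bulb interneuron genes whose bins had the largest relative rise of 5hmC, and Olfr1116 and Olfr635 lead the 2 lowest bins whose first gene by overlap is an olfactory receptor. Each run is the 250 bases before the most 5′ gene start in the RefSeq promoter table (GRCm38.p6), 5′ to 3′, with CpG sites in capitals.
Erbb4: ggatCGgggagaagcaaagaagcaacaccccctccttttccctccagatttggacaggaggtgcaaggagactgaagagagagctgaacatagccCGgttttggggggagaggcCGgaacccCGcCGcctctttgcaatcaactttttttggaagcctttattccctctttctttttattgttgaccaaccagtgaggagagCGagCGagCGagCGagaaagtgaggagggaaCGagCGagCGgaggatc
Meis2: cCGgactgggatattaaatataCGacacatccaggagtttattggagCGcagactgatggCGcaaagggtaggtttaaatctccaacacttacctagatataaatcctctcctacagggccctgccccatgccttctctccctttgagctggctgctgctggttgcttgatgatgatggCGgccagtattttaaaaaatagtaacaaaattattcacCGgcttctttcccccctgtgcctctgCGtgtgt
Olfr1116: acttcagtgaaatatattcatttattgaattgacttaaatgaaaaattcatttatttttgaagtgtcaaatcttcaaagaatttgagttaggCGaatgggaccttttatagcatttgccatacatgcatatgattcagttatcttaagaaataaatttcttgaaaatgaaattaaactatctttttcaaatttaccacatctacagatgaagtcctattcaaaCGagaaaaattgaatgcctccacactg
Olfr635: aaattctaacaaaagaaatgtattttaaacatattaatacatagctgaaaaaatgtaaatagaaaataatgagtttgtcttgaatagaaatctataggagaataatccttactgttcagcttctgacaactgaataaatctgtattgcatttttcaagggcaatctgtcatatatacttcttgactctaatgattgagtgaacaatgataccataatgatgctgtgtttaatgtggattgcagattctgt
The run of Erbb4 is chr1:69108060-69108309, minus strand, 12 CpG sites. The run of Meis2 is chr2:116064620-116064869, minus strand, 7 CpG sites. The run of Olfr1116 is chr2:87268596-87268845, plus strand, 2 CpG sites. The run of Olfr635 is chr7:103978926-103979175, plus strand, 0 CpG sites. Over the 32851 RefSeq promoters of the same length, the letters CG (the same on both strands) occurred in 92.1%, with a median of 6 sites. The GENCODE genes of Meis2, Olfr1116 and Olfr635 start further 5′ than the RefSeq starts, so these 3 runs lie inside the GENCODE genes. The runs of Erbb4 and Meis2 fall in the bins next to those that hold most of each gene. The 5hmC levels are of whole bins of 1 Mb and give no level of these stretches themselves.

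The level of 5hmC was lower in olfactory bulb than in cortex across most of the genome, and it was also more uneven from bin to bin. The median over bins was 0.175, 0.188 and 0.168 in the cortex libraries and 0.153, 0.161 and 0.153 in the olfactory bulb libraries, as a fraction from 0 to 1. The 2 tissues did not overlap. The mean of these medians was 0.177 ± 0.00998 (SD, n = 3) in cortex and 0.156 ± 0.00471 (SD, n = 3) in olfactory bulb, a ratio of 0.879 (two-sided exact permutation test, p = 0.1, the lowest value that this design can give). The low end moved most. The level below which 5% of bins lay was 0.0933 ± 0.00635 (SD, n = 3) in cortex and 0.0646 ± 0.00408 (SD, n = 3) in olfactory bulb, without overlap (exact permutation test, p = 0.1). The level above which 5% of bins lay was 0.219 ± 0.0113 and 0.215 ± 0.00540 (SD, n = 3 each), a difference smaller than the spread between libraries (exact permutation test, p = 0.7). The SD across bins was 0.0403 ± 0.00174 in cortex and 0.0451 ± 0.00122 in olfactory bulb (SD, n = 3 each; exact permutation test, p = 0.1). Across bins, Pearson's r was 0.993 to 0.995 between cortex libraries, 0.995 to 0.998 between olfactory bulb libraries and 0.922 to 0.931 between the tissues. The depth behind the levels is unknown, so the spread between libraries is the only error given.

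**Figure D1:**
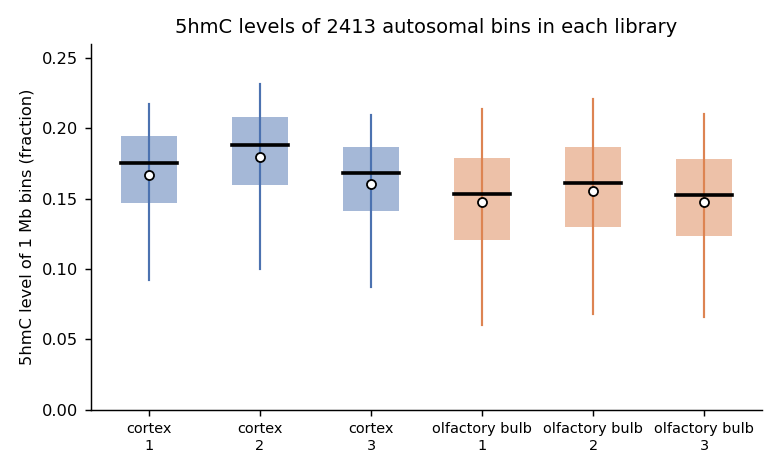
5hmC level (fraction, y axis) of 2413 autosomal bins of 1 Mb in each of the 3 cortex and 3 olfactory bulb libraries (x axis). Boxes span the middle 50% of bins, thin lines the 5% to 95% range, black bars are medians and white circles means; the medians of olfactory bulb (0.153, 0.161 and 0.153) lie below those of cortex, while the upper ends of the ranges are close.

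In single bins, the fall in level was widespread. The mean level was lower in olfactory bulb in 2139 bins and higher in 274. The ratio of olfactory bulb to cortex had a median of 0.873 over bins, 90% of bins lay between 0.694 and 1.07, and the whole range was 0.395 to 1.45. The mean level was lower by 1.25-fold or more in 529 bins and higher by that much in 7. It was lower by 2-fold or more in 8 bins and higher by 2-fold in 0. By limma on log2(level/(1 − level)), called log2 odds here, with Benjamini-Hochberg adjustment and a threshold of 0.05, 1689 bins (70.0%) differed in level, of which 81 (3.36%) were higher and 1608 (66.6%) lower in olfactory bulb. The 3 libraries of one tissue all lay beyond those of the other in 84 bins higher (3.48%) and 1622 bins lower (67.2%), 70.7% in all. The limma fit of levels used the same standard error in every bin, pooled over bins that share the overall level of each library. Its calls thus include the shift of whole libraries, for which the exact permutation test of medians gave p = 0.1. The small number of higher bins moved with single libraries: it was 170 without the second cortex library, 52 without cortex library 3, and 122 when the fraction itself was tested.

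Relative changes were taken from the median of each library, which centres them near 0, so that the balance of higher and lower bins is set by the centring. Subtracting each library's median moved every bin by the same amount, so that the relative change was 0.222 (log2 odds) above the change in level. Of the 2413 bins, 1703 (70.6%) then differed: 823 (34.1%) were relatively higher and 880 (36.5%) relatively lower in olfactory bulb. The libraries of the tissues did not overlap in 897 bins higher (37.2%) and 964 bins lower (40.0%), 77.1% in all. The relative change had an SD of 0.216 across bins, and 90% of bins lay between −0.367 and 0.335. Its lower tail was the longer, with 1% of bins under −0.605 and 1% over 0.491.

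The level and the relative change divided the genome into a few classes. In 80 bins (3.32%) 5hmC was higher in olfactory bulb both as a level and relatively, and in 880 bins (36.5%) it was lower by both measures. The largest mixed classes were 699 bins (29.0%) with a relative rise and no call in level, and 684 bins (28.3%) with a lower level and no relative call. In 44 bins (1.82%) the level was lower while the relative 5hmC was higher, and 25 bins (1.04%) had neither call.

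**Figure D2:**
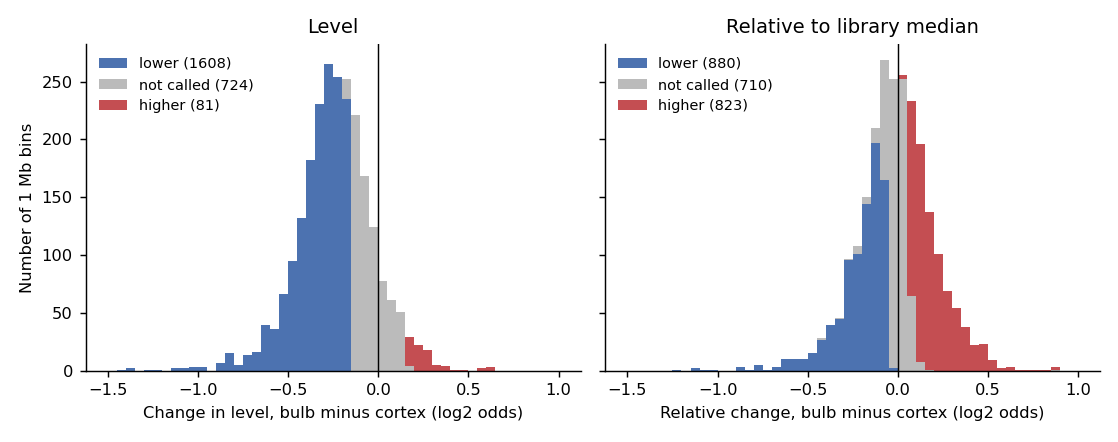
Number of 1 Mb bins (y axis) by the change of 5hmC from cortex to olfactory bulb in log2 odds (x axis), as a level (left) and relative to each library's median (right). Colours give the limma calls; as levels 1608 bins were lower and 81 higher, and relative to the median 880 were lower and 823 higher.

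Bins poor in 5hmC lay further below cortex, as a ratio, than bins rich in 5hmC. Over the 329 bins with a mean level of the 6 libraries above 0.2, the median ratio of olfactory bulb to cortex was 0.972, and 258 of these bins were relatively higher and 15 relatively lower. In the 1273 bins from 0.15 to 0.2 the median ratio was 0.889, with 485 bins higher and 374 lower. It was 0.824 in the 600 bins from 0.1 to 0.15, with 77 higher and 332 lower. In the 152 bins from 0.05 to 0.1 it was 0.712, with 3 higher and 124 lower, and in the 59 bins at or below 0.05 it was 0.742, with 0 higher and 35 lower. The median relative change went from −0.317 in the 0.05 to 0.1 band to 0.170 above 0.2. This order belongs to ratios and odds: as differences in fraction, the median relative change of the 59 lowest bins was 0.0125, above the median of the library. Of the 880 bins relatively lower in log2 odds, 732 were also lower when the fraction was tested, 119 were not called and 29 were called higher. Of the 823 higher bins, 789 were higher on both scales and 0 turned.

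The largest relative rises were in the bins of Erbb4, Adarb2 and Nrxn3 and in a pair of adjacent bins with no protein-coding gene. The first was chr8:50000001-51000000 (GRCm38), which no protein-coding gene of GENCODE M21 overlaps. Its level was 0.135, 0.142 and 0.128 in cortex and 0.200, 0.197 and 0.191 in olfactory bulb. Bins named as the largest rises and falls were taken from called bins whose libraries did not overlap relative to the median. Their calls and that separation thus follow from the choice. This first bin had the highest ratio of all bins, 1.45. Its relative change was 0.87 ± 0.03 (SE; limma, adjusted p = 1.71e-07). The neighbouring bin chr8:49000001-50000000 holds no protein-coding gene either, and it rose by 0.72 ± 0.03 (adjusted p = 1.76e-07), from a mean level of 0.164 to 0.216.

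Erbb4, which encodes a receptor for neuregulins found on many interneurons, covers 96.8% of chr1:68000001-69000000. The level there was 0.164, 0.178 and 0.150 in cortex and 0.236, 0.236 and 0.229 in olfactory bulb. The ratio was 1.43 and the relative change 0.86 ± 0.04 (SE; limma, adjusted p = 3.27e-07). Adarb2 encodes a member of the RNA-editing deaminase family and is a marker of interneurons in the forebrain. Its bin, chr13:8000001-9000000, had levels of 0.163, 0.175 and 0.150 in cortex and 0.224, 0.233 and 0.224 in olfactory bulb, a relative change of 0.82 ± 0.02 (adjusted p = 8.85e-08). Nrxn3 encodes the presynaptic adhesion protein neurexin 3, and chr12:89000001-90000000 lies wholly within it. That bin went from 0.213, 0.225 and 0.203 in cortex to 0.289, 0.291 and 0.283 in olfactory bulb, a relative change of 0.80 ± 0.03 (adjusted p = 1.71e-07).

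The other 5 of the 10 largest rises were between 0.57 and 0.66. The bin of Fxr1 and Dnajc19, chr3:34000001-35000000, rose by 0.66 from a mean level of 0.187 to 0.237, and only 6.34% of it is covered by protein-coding genes. BC052040 and Meis2 share chr2:115000001-116000000, where the level rose from 0.194 to 0.239. Meis2 encodes a homeodomain factor of bulb interneurons. The bin of its relative Meis1, chr11:18000001-19000000, had levels of 0.146, 0.157 and 0.135 in cortex and 0.174, 0.184 and 0.180 in olfactory bulb, a relative change of 0.57. Arpp21, which encodes a phosphoprotein regulated by cyclic AMP, lies in chr9:112000001-113000000 (relative change 0.61), and Grm8, a metabotropic glutamate receptor gene, in chr6:27000001-28000000 (0.60).

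The largest relative falls were in bins of immunoglobulin segments and of olfactory and vomeronasal receptors, and in bins with few or no protein-coding genes. The paper calls levels outside gene bodies extremely low and places them inside the error range of TAB-seq. How much such error adds to the low levels of these bins, and to their ratios, was not tested. The lowest bins were chr6:69000001-70000000 and chr6:68000001-69000000, which hold 62 and 55 immunoglobulin gene segments and no gene of the protein-coding class. In the first of them the level was 0.0831, 0.0950 and 0.0816 in cortex and 0.0295, 0.0374 and 0.0357 in olfactory bulb. The ratio of 0.395 was the lowest of all bins, and the relative change was −1.20 ± 0.07 (SE; limma, adjusted p = 1.05e-06). The second went from a mean of 0.0625 to 0.0252, a relative change of −1.14 ± 0.04 (adjusted p = 2.10e-07).

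Olfactory receptor genes, which are expressed in the sensory neurons of the nose, filled 3 of the 10 lowest bins. The bin of Gvin1 and Olfr707, chr7:106000001-107000000, holds 22 of them, and its level was 0.0543, 0.0655 and 0.0551 in cortex and 0.0207, 0.0262 and 0.0238 in olfactory bulb (relative change −1.14 ± 0.08). The bin of Olfr1116 and Olfr259, chr2:87000001-88000000, holds 61 and went from 0.0752, 0.0869 and 0.0786 to 0.0296, 0.0378 and 0.0405 (−1.01 ± 0.11). The bin of Olfr635 and Olfr617, chr7:103000001-104000000, holds 65 and went from 0.0737, 0.0846 and 0.0724 to 0.0333, 0.0387 and 0.0389 (−0.90 ± 0.07). Separation of the libraries relative to the median was a condition for naming these 3 bins. The counts of genes include pseudogenes, and such families hold near-identical copies to which reads cannot always be assigned.

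Gm8871 and Gm8922 mark chr5:11000001-12000000 (relative change −1.05), and the vomeronasal receptors Vmn1r203 and Vmn1r188 mark chr13:22000001-23000000 (−0.85). The bins chr12:22000001-23000000 (−0.89) and chr3:12000001-13000000 (−0.85) have no protein-coding gene. The first of these 2 went from a mean of 0.0298 to 0.0141, and as a difference in fraction from the library median it was 0.00568 higher in olfactory bulb and not called. Slc5a7 encodes the choline transporter of cholinergic neurons and covers 2.54% of chr17:54000001-55000000, where the level fell from 0.107, 0.127 and 0.101 to 0.0538, 0.0623 and 0.0590 (−0.80 ± 0.06). Of these 20 bins, all kept their call after quantile normalization, and 19 kept their direction when the fraction was tested.

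Bins beside each other had similar changes. Pearson's r of the relative change between adjacent bins was 0.465 over 2394 pairs, and it was 0.455 to 0.467 when any 1 library was left out. It was 0.226 at a distance of 2 bins, 0.142 at 3, 0.0912 at 4 and 0.0481 at 5, and at 6 bins it was −0.000212. Adjacent bins share libraries, and their mean levels were also alike (r = 0.578). When bulb minus cortex was taken from library pairs with no library in common, r was 0.912 to 0.944 for the same bin and 0.411 to 0.449 for adjacent bins. The pairs used here follow the replicate numbers only as names. After a bin called relatively higher, the next bin was higher in 53.8% and lower in 19.8% of 822 pairs, beside 34.1% and 36.5% over all bins. After a lower bin the next was lower in 52.6% and higher in 18.9% of 869 pairs.

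**Figure D3:**
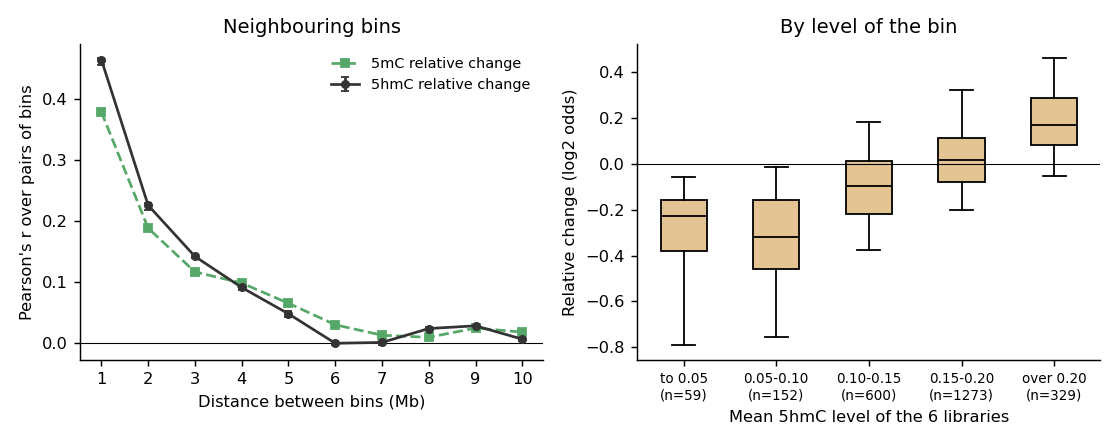
Left, Pearson's r (y axis) of the relative change between autosomal bins by their distance in Mb (x axis), for 5hmC (black, bars give the range when any 1 library is left out) and 5mC (green). Right, relative 5hmC change in log2 odds (y axis) of bins grouped by the mean 5hmC level of the 6 libraries (x axis), with medians, middle 50% boxes and 5% to 95% whiskers; r falls from 0.465 to about 0 within 6 Mb, and the median change is 0.170 in the highest group.

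Runs of adjacent bins called in 1 direction numbered 381 for higher and 423 for lower. Most were short, and 32 and 37 of them had 5 bins or more. The longest higher run had 14 bins, chr15:86000001-100000000, with a mean relative change of 0.201 and mean levels of 0.192 in cortex and 0.189 in olfactory bulb. Among its longest genes were Tmem117, Nell2 and the neural adhesion gene Cntn1. The next were chr10:105000001-117000000 (12 bins, 0.263), with Nav3, the synaptic vesicle calcium sensor Syt1 and the presynaptic scaffold gene Ppfia2, and chr10:89000001-100000000 (11 bins, 0.245), with Anks1b. The longest lower run had 11 bins, chr6:66000001-77000000, with a mean of −0.365 and levels of 0.137 in cortex and 0.103 in olfactory bulb. It takes in both bins of immunoglobulin segments. The next were chr1:108000001-118000000 (10 bins, −0.388), with Cntnap5a and the cadherin gene Cdh7, and chr12:55000001-64000000 (9 bins, −0.266), with Slc25a21 and Lrfn5.

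Some borders were sharp. The median step between adjacent bins was 0.141. The largest was 1.05, from −0.0880 in chr7:105000001-106000000 to −1.14 in the bin of Gvin1. The second, 0.943, ended in the last bin of chromosome 2, of which 98.7% of the bases are undetermined or missing and which has 109 CpG sites. Its libraries gave 0.0638, 0.0403 and 0.0152 in cortex and 0.0591, 0.0493 and 0.0498 in olfactory bulb, so the tissues overlapped and the bin was not called (limma, adjusted p = 0.0985). The others were at the border of the Mup genes, which encode major urinary proteins, with Rgs3 and Fkbp15 on chromosome 4 (0.942), where part of the Mup bin is undetermined, at the end of the immunoglobulin segments on chromosome 6 (0.917), and before Cdh20 on chromosome 1 (0.885).

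Whole chromosomes differed little. The mean relative change was lowest on chromosome 7, at −0.0719, with 28 bins higher and 56 lower of 143. It was highest on chromosome 18, at 0.0568, with 47 higher and 25 lower of 88. On both the libraries of the tissues did not overlap (two-sided exact permutation test, p = 0.1, adjusted p = 0.127 over the 19 autosomes). The same was true of most autosomes, so it does not set chromosomes 7 and 18 apart, which were picked as the extremes.

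The genes over 1 Mb long, many of which encode adhesion molecules and receptors of synapses, went both ways. Of 55 such genes, 31 had a mean relative change above 0 and 24 below, with a median of 0.0261, and the libraries of the tissues were apart in 47. Among all single bins, the libraries were apart in 77.1%, so much of this count is shared with the genome at large. The 5 highest were Erbb4 (0.80), Nrxn3 (0.66), Auts2 (0.43), Anks1b (0.40) and Gm37240 (0.37). Over Nrxn3, 1612060 bases long, the level was 0.194, 0.207 and 0.184 in cortex and 0.249, 0.252 and 0.245 in olfactory bulb. Among the lowest were Ptprd (−0.51), Lingo2 (−0.34), Gpc6 (−0.34) and Agbl4 (−0.34). Ptprd encodes a receptor tyrosine phosphatase that acts as a synaptic organizer. It had levels of 0.212, 0.231 and 0.205 in cortex and 0.140, 0.147 and 0.140 in olfactory bulb, and each of its 4 bins was relatively lower. Its fall to a ratio of 0.660 and the rise of Erbb4 to a ratio of 1.38 mark the range among these genes.

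Over all bins, 34.1% were relatively higher and 36.5% lower. In bins filled to 90% or more by the annotated span of 1 gene, 22 of 41 (53.7%) were relatively higher and 11 (26.8%) lower. Their median change was 0.0871. Among them were bins of Gm20388 and Fgfr2, whose annotated spans are chr8:119910841-124345722 and chr7:130162451-133123350. Some genes fill several of these bins, so the bins are not independent. Beside Erbb4 and Nrxn3, the largest rises among them were in the postsynaptic scaffold gene Dlg2 (0.49) and in Anks1b (0.42), and the largest falls in Ptprd (−0.55 and −0.49) and Lingo2 (−0.42). Of 270 bins without the centre of any protein-coding gene, 129 (47.8%) were lower and 62 (23.0%) higher. Of 110 bins with 31 or more genes, 64 were lower and 11 higher.

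Bins rich in repeats were mostly relatively lower. In the 604 bins with the smallest share of repeat-masked bases, 51.5% were relatively higher and 20.7% lower, and in the 603 bins with the largest share, 13.9% and 55.9%. Pearson's r of the share with the relative change was −0.424 over the 2413 bins, and Spearman's rho was −0.393, or −0.148 when the change was a difference in fraction. The mean level of the bin goes with the share of repeats as well, and r of the relative change with that level was 0.617. By coverage with protein-coding genes, the median relative change was −0.0592 in the 604 bins least covered and 0.0301 in the 603 bins most covered. Within a tissue, the most covered bins stood above the least covered ones by 0.688 ± 0.00578 log2 odds in cortex and 0.785 ± 0.0359 in olfactory bulb (SD, n = 3 each; exact permutation test, p = 0.1, no overlap). As a difference in fraction this contrast was 6.64e-05 (exact permutation test, p = 1), so the difference was found in odds and not in fractions. The median ratio of olfactory bulb to cortex was 0.843 in the least covered bins and 0.896 in the most covered ones.

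Most of the listed genes of bulb interneurons lay in bins with more relative 5hmC in olfactory bulb. This list and the others were chosen with earlier results of these data known. Erbb4 and Meis2, named above by the same change, are members, so the counts describe the list and do not test it. Each gene was given the change of the 1 Mb bin that holds most of it. Among all 20780 protein-coding autosomal genes, 26.5% lay in bins relatively higher and 42.0% in bins relatively lower, with a median of −0.0408. Of 21 bulb interneuron genes in 19 bins, 18 were higher and 2 lower, with a median of 0.318, and the counts were 18 and 2 without any 1 library and when the fraction was tested. After quantile normalization they were 19 and 2, with a median of 0.297. The gene that encodes the GABA-synthesizing enzyme Gad1 had levels of 0.192, 0.206 and 0.185 in cortex and 0.199, 0.207 and 0.204 in olfactory bulb. These levels overlapped, while relative to the median they rose by 0.30 (limma, adjusted p = 4.53e-06). Gad2 (0.32) and the vesicular GABA transporter gene Slc32a1 (0.24) did likewise.

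Transcription factors of these interneurons were among the higher genes. Dlx5 and Dlx6 share 1 bin, with levels of 0.172, 0.185 and 0.161 in cortex and 0.201, 0.206 and 0.196 in olfactory bulb, a relative change of 0.49. Dlx1 and Dlx2 share another (0.35). Etv1, with 0.170, 0.186 and 0.169 against 0.208, 0.214 and 0.203, rose by 0.53, and Sp8 rose by 0.47, both with every olfactory bulb library above the cortex libraries. Zic1 (0.39), Tshz1 (0.30), Pax6 (0.25) and Sp9 (0.17) rose less. Synpr, which encodes the synaptic vesicle protein synaptoporin, went from 0.153, 0.166 and 0.148 to 0.183, 0.190 and 0.182 (0.52).

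The 2 exceptions were the enzyme genes of dopamine synthesis, Th and Ddc. Th, which encodes the rate-limiting enzyme of dopamine synthesis, had 0.144, 0.152 and 0.135 in cortex and 0.108, 0.120 and 0.110 in olfactory bulb, a relative change of −0.18 ± 0.02 (limma, adjusted p = 0.000154). Ddc, the next enzyme of the pathway, changed by −0.17 ± 0.02 (adjusted p = 8.92e-05). The bin of Th holds many other genes, among them the keratin-associated Krtap5-1. Calb1 was not called (0.03, adjusted p = 0.380), while Calb2 rose by 0.15. As levels, 8 of the 21 genes were higher and 3 lower, beside 1.15% and 75.1% of all genes, and the 8 became 13 without the second cortex library.

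**Figure D4:**
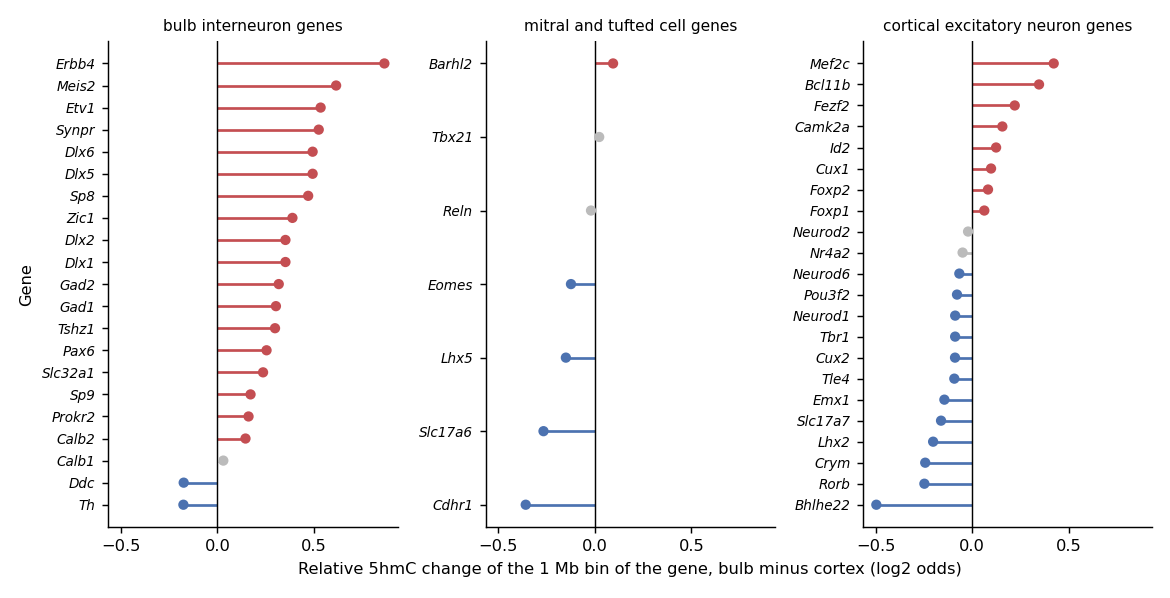
Relative 5hmC change (log2 odds, x axis) of the 1 Mb bin that holds each gene (y axis), for genes of bulb interneurons, of mitral and tufted cells and of cortical excitatory neurons. Red and blue mark bins called higher and lower by limma and grey those not called; 18 of 21 bulb interneuron genes are higher, 4 of 7 mitral and tufted cell genes and 13 of 23 cortical excitatory genes lower, of which 1 is not drawn.

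The other neuron lists are read beside the 26.5% of all genes relatively higher and the 42.0% relatively lower. Of 7 genes of mitral and tufted cells, 1 was relatively higher and 4 lower, with a median of −0.123. Cdhr1, a cadherin gene of mitral cells, went from 0.131, 0.148 and 0.135 to 0.0960, 0.101 and 0.0937 (−0.36), and the glutamate transporter gene Slc17a6 changed by −0.27. Eomes (−0.12) and Lhx5 (−0.15) fell as well, Barhl2 rose by 0.09, and Tbx21 (0.02) and Reln (−0.02) were not called. Of 23 genes of cortical excitatory neurons, 8 (34.8%) were higher and 13 (56.5%) lower, both above the shares of all genes, with a median of −0.0790. Bhlhe22, which encodes a helix-loop-helix transcription factor, had the largest fall, from 0.165, 0.181 and 0.159 to 0.105, 0.113 and 0.110 (−0.50). Rorb (−0.25) and Crym (−0.24) followed. Mef2c (0.42), Bcl11b (0.35) and Fezf2 (0.22) rose. Bcl11b and Mef2c are also used by interneurons, and whether that bears on their change was not tested.

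The larger lists of glia and vessels had shares near those of all genes. Relatively higher and lower were 4 and 7 of 15 astrocyte genes, 4 and 8 of 17 oligodendrocyte lineage genes, 3 and 5 of 12 microglia and vessel genes, and 0 and 2 of 3 olfactory ensheathing cell genes. Among them Slc4a4, a bicarbonate transporter gene of astrocytes, rose by 0.49, and Ndrg2 fell by 0.43. Without the first cortex library or the first olfactory bulb library, 4 astrocyte genes were lower in place of 7. The list of enzymes and readers of DNA methylation had 4 higher and 6 lower of 14, with Dnmt1 at −0.23 and Tet1 at −0.17.

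Receptor and channel genes were split within each family. Among all genes, 26.5% were relatively higher and 42.0% relatively lower. Of 17 ionotropic glutamate receptor genes 7 were relatively higher, among them Grik3 (0.50), Grin2b (0.47), Grin2a (0.42) and Gria1 (0.40), and 5 were lower, among them Grin1 (−0.20). Of 8 metabotropic glutamate receptor genes 3 were higher, led by Grm8, and 4 lower, led by Grm3 (−0.30); the higher were 2 without cortex library 2, without cortex library 3 or without the first olfactory bulb library. Of 14 GABA-A receptor genes, in 7 bins, 4 were higher and 4 lower. The lower genes were 1 in number without the second cortex library or the first olfactory bulb library. Potassium channel genes were higher in 32 and lower in 25 of 92, and calcium channel alpha subunit genes in 6 and 2 of 9, with Cacna1c at 0.31. After quantile normalization the potassium channel genes were higher in 28 and lower in 32, and the calcium channel genes in 5 and 3.

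Adhesion and guidance genes held some of the widest contrasts, and their counts are read beside the same shares of all genes, 26.5% and 42.0%. Of 34 synaptic adhesion genes, 16 were relatively higher and 10 lower, with Nrxn3, Tenm4 (0.50) and Tenm3 (0.48) at one end and Cntnap5a (−0.64) and Ptprd at the other. Their median was 0.0435, and −0.103 after quantile normalization. Of 31 axon guidance genes 14 were higher, among them Epha6 (0.50) and Robo2 (0.46), and 8 lower, among them Slit2 (−0.24), with a median of 0.0496, which became −0.00447 after quantile normalization. Very large genes at fragile sites had 7 higher and 5 lower of 16.

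Clustered gene families followed their bins, and are read beside 26.5% of all genes relatively higher and 42.0% relatively lower. The 1127 olfactory receptor genes lay in 82 bins, and 45 of them were in bins relatively higher and 966 in bins relatively lower. Their median was −0.379 in log2 odds, −0.00886 as a fraction and −0.173 after quantile normalization, with median levels of 0.0851 in cortex and 0.0549 in olfactory bulb. A few went the other way, such as Olfr722 to Olfr724, whose bin went from a mean of 0.165 to 0.172 (relative change 0.30). Of 326 vomeronasal receptor genes in 51 bins, 9 were higher and 180 lower, but their median of −0.176 became 0.0103 as a fraction and 0.0208 after quantile normalization. Without the second olfactory bulb library it was −0.284, with 228 genes lower, and over the libraries left out in turn the lower genes numbered 139 to 228. The 42 beta-defensin genes (2 higher, 27 lower) turned in the same way, from −0.202 to 0.00651 and 0.0112. Of 385 Zfp genes, 57 were higher and 218 lower, with a median of −0.102 in log2 odds and −0.00191 as a fraction.

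Families with relative rises were few, beside 26.5% of all genes relatively higher and 42.0% relatively lower. The 39 Hox genes lay in 5 bins, 20 were higher and 0 lower, and the Hoxd bin changed by 0.15. The clustered protocadherins lie in a single bin, which rose by 0.10 (limma, adjusted p = 0.0152) and was not called without the second or the third olfactory bulb library. Of 113 keratin and keratin-associated genes in 12 bins, 65 were higher and 7 lower. These became 27 higher without the second cortex library, with 41 lower, and 27 higher without the second or the third olfactory bulb library. As levels these families did not rise. The Hox genes had 0 higher and 19 lower, the keratins 0 and 72, and the protocadherin bin was not called. Of all genes, 1.15% were higher and 75.1% lower in level.

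5mC, read in other libraries by oxBS-seq (3 of cortex and 2 of olfactory bulb), mostly went the opposite way to 5hmC where both were called. In oxBS-seq 5hmC is oxidized and then lost in the bisulfite step, so that cytosine is read from 5mC alone. Relative to the library medians, 1176 of the 2413 bins (48.7%) differed in 5mC, 619 (25.7%) higher and 557 (23.1%) lower in olfactory bulb. Of the 823 bins with relatively higher 5hmC, 418 had lower 5mC and 63 higher 5mC. Of the 880 bins with lower 5hmC, 384 had higher 5mC and 46 lower 5mC. Pearson's r of the 2 changes was −0.568 in log2 odds and −0.692 as fractions, over bins that are not independent and that share CpG content and repeats. As fractions, 5mC changed by −0.821 per unit of change in 5hmC. The sum of the 2 levels had a mean of 0.843 in cortex and 0.855 in olfactory bulb, and its change had an SD of 0.0146 across bins, beside 0.0166 for 5hmC and 0.0198 for 5mC.

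**Figure D5:**
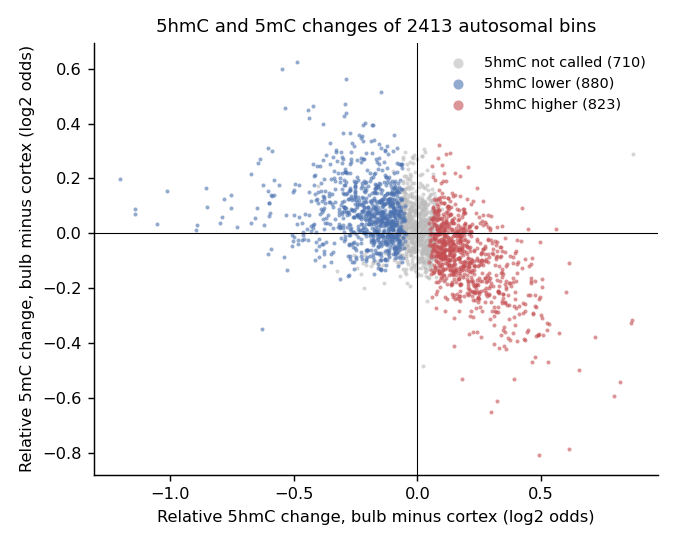
Relative change of 5hmC (x axis) and of 5mC (y axis) from cortex to olfactory bulb, both in log2 odds, with 1 point for each of 2413 autosomal bins. Colours give the 5hmC calls; points of relatively higher 5hmC lie mostly below 0 for 5mC (418 called lower, 63 higher) and those of lower 5hmC mostly above.

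Each of the 10 bins with the largest 5hmC rises had relatively lower 5mC in olfactory bulb. As a level, the median 5mC over bins was 0.679 in cortex and 0.711 in olfactory bulb, so relative and level changes can differ. In the bin of Arpp21 the 5mC level rose from 0.612 to 0.630, and in that of Grm8 it was 0.723 in both tissues. The other bins had a lower 5mC level in olfactory bulb. In the bin of Meis2, 5mC went from a mean of 0.695 in cortex to 0.605 in olfactory bulb, a relative change of −0.79 (limma, adjusted p = 8.78e-10). In the bins of Nrxn3 and Adarb2 it changed by −0.60 and −0.54. Of the 21 bulb interneuron genes, 16 lay in bins with relatively lower 5mC and 1 with higher, beside 26.3% and 13.9% of all genes. Among the 10 bins with the largest 5hmC falls, 5mC was relatively higher in 4 and not called in 6. It rose by 0.20 in the lowest bin on chromosome 6 (limma, adjusted p = 0.000431), and the bin of Olfr635 was not called (0.01, adjusted p = 0.806).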

How the data were processed

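The authors mapped reads uniquely to mm10 with Bismark and deposited 5hmC and 5mC levels per bin as a fraction from 0 to 1, in bins of 1 Mb (TAB-seq) and 100 kb (oxBS-seq). Read counts and coverage were not used here, depth is unknown, and how sites were combined within a bin is not given in the sources used here. From there, bins with a level above 0 in every library were kept, and 5mC was averaged without weights to 1 Mb.

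Levels were tested with limma 3.58.1 (R 4.3.3) on log2(level/(1 − level)) in 1 fit over all 9 TAB-seq libraries (cortex, olfactory bulb and cerebellum, which share the estimate of the spread), with Benjamini-Hochberg adjustment over 2581 bins of autosomes and X. The standard error of the level fit was the same in every bin. Relative changes used the same fit after each library's autosomal median was subtracted. 5mC was fitted likewise over 7 oxBS-seq libraries. Single values per library were compared with exact permutation tests, for which 0.1 is the smallest p. The scripts were tested on simulated data.

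Named were the 10 strongest relative rises and 10 strongest falls among called bins whose libraries did not overlap, with up to 2 genes each, the 3 longest runs per direction, the 5 largest steps, the 5 highest and lowest genes of at least 1 Mb, the extreme autosomes and the extreme members of 23 gene lists. Further list members, runs of sequence and example genes were chosen after their values were seen. The members and lists were chosen with earlier results of these data known. Values of a few genes that the rule names are not reported here, though the counts include them. Genes came from GENCODE M21, CpG sites and repeats from GRCm38, and other computations used Python 3.11.15 with pandas 2.3.3. The alternatives were other scales, centrings, filters, libraries and a replicate block.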

Additional observations from a re-analysis of the deposited data

How the results depend on the processing

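The comparisons across all bins kept their direction when any 1 TAB-seq library of the 2 tissues was left out, while not all gene lists did: without cortex library 2 the keratins had 27 genes higher and 41 lower, and the astrocyte median of -0.00805 became 0.0146 without cortex library 1 and 0.0127 without olfactory bulb library 3. The number of bins that differed in level was then 1438 to 1862, and relative to the median 1568 to 1617. The difference in median level was -0.0259 to -0.0160, that in SD across bins 0.00389 to 0.00562, and r between adjacent bins 0.455 to 0.467. The contrast by gene coverage was 0.0753 to 0.107 and r with 5mC was -0.582 to -0.554. When any 1 oxBS-seq library was left out, an alternative added after the data were seen, r with 5mC was -0.596 to -0.515. Other settings gave 1624 to 1861 bins in level and 1671 to 1754 relative to the median. On the fraction scale, r with 5mC was -0.692 and the contrast by gene coverage 6.64e-05, so the latter was lost, and chr12:22000001-23000000 turned to 0.00568. The cause was not tested. The difference in spread was 0.00974 as an interquartile range and 0.120 as the SD of log2 odds, which are other units. Quantile normalization lost 353 of the relative calls and turned 72.

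Whether the replicate numbers pair the libraries could not be settled. After each library's median was subtracted, the deviations of same-numbered libraries from their group means correlated at 0.320, 0.0383 and -0.0484. Cortex libraries 2 and 3 did not correlate best with their own numbers. That subtraction removes any shared level of a library, and 3 libraries per tissue are few. Library 2 had the highest median in both tissues, 0.188 in cortex and 0.161 in olfactory bulb. With the replicate number as a block, 1757 bins differed in level and 1698 relative to the median, the difference in median level was -0.0214 ± 0.00570 (SD, n = 3 pairs), and all 20 named bins kept their call.

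With levels only, no counting error can be given. The conversion error of TAB-seq was not used either, so its share in the lowest levels and their ratios was not tested. Bins of 1 Mb do not resolve genes that share them, and 47 bins with 10% or more undetermined bases (7 relatively higher, 27 lower) rest on fewer sites.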
